A study of Mus musculus with 17 samples.

Results

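Interferon gamma and the CXCR3 chemokines were followed here through 9 genes of the deposited table, out of 21931 genes in all. The genes were Ifng, the receptor chains Ifngr1 and Ifngr2, the early targets Irf1 and Socs1, the chemokines Cxcl9 and Cxcl10 with their receptor Cxcr3, and the enzyme gene Ido1. They were chosen by name, as the cytokine, its receptor and genes known to answer it, and each has 1 row in the table. All 9 passed the filter on low counts. Positions are those of GENCODE M21 on GRCm38, matched by Ensembl identifier, because the positions in the table itself were other ones for all 9 genes.

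Interferon gamma is a cytokine made by activated T cells and NK cells. It binds a receptor of both receptor chains, whose kinases JAK1 and JAK2 pass the signal to the nucleus. There it acts through a short DNA element called GAS and switches on the factor IRF1, which binds the element called ISRE in further genes, while SOCS1 blocks the kinases and so limits the response. CXCL9 and CXCL10 are secreted by macrophages, dendritic cells and tumor cells that have met interferon, and they attract T cells and NK cells that carry CXCR3. IDO1 breaks down tryptophan, which restrains T cells.

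The study asked how freezing 1 tumor affects a distant tumor in the same mouse. MC38, a mouse colon cancer line, was grown as a tumor on each flank of C57BL/6J mice, aged 6 to 8 weeks and labelled WT. In the cryoablation group (8 tumors), 1 tumor was frozen on the 7th day through a cryoprobe, with 2 freezing cycles of 20 s by the labels, and the contralateral tumor, which was never frozen, was taken 5 days later. In the control group (9 tumors), also labelled as day 5, the labels describe neither a probe nor a sham treatment, and for no tumor do they name the mouse, so the p values below measure the spread between these tumors.

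Total counts ranged from 13524899 to 17898672 per tumor, and the 3 counts that a count of 0 leaves possible equal 0.168 to 0.222 CPM, for counting error only. Tumor cells and host cells were sequenced together, so that fewer cells of a type and less RNA per cell cannot be told apart. The labelled cell type is a colon cancer cell, but the epithelial list was low at a summed level of 20.1 to 137 CPM. In that list Cdx2, the defining intestinal factor, was at 0 in all tumors, whereas Lgals4 and Cdh1 had counts in every tumor. Cryoablation replicates 2, 4 and 5 stood apart on the first principal component, with scores of -39.4 to -28.4 against -8.32 to 20.6 in the other 14 tumors, and values that rest on them are given with and without them. Of the erythroid markers, 4 of the 4 tested were higher after cryoablation at an unadjusted p under 0.05 by edgeR, beside 3.74% of all genes tested. Each had an adjusted p of 0.728, so that none was called. The summed level of this list was 6.16 to 74.6 CPM in the control group and 25.1 to 175 CPM in the cryoablation group. The part of these markers in the values below was not tested.

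None of the 9 genes differed between the groups by edgeR's quasi-likelihood test with Benjamini-Hochberg adjustment over the 13005 genes tested. The smallest adjusted p of the 9 was 0.728, and over all genes 0.0% were called at an adjusted p under 0.05. No member had an unadjusted p under 0.05, against 4.91% of all genes tested (639 genes, of which 3.74% of all were higher and 1.17% lower after cryoablation). None met the study's own rule either, which asks for a change of over 1 on the log2 scale beside the unadjusted p, and which 0.492% of all genes met (18 genes, or 0.138%, on the lower side). DESeq2 and limma voom also called 0 genes, with 881 and 1312 genes at an unadjusted p under 0.05. The log2 fold change of cryoablation over control was below 0 for 7 of the 9 genes, against 52.0% of all genes tested, and its median was -0.13 against -0.0088 over all genes. In every one of the 9 genes the groups overlapped. The values below are CPM after TMM normalization, given as the lowest, the median and the highest tumor of a group.

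**Figure D1:**
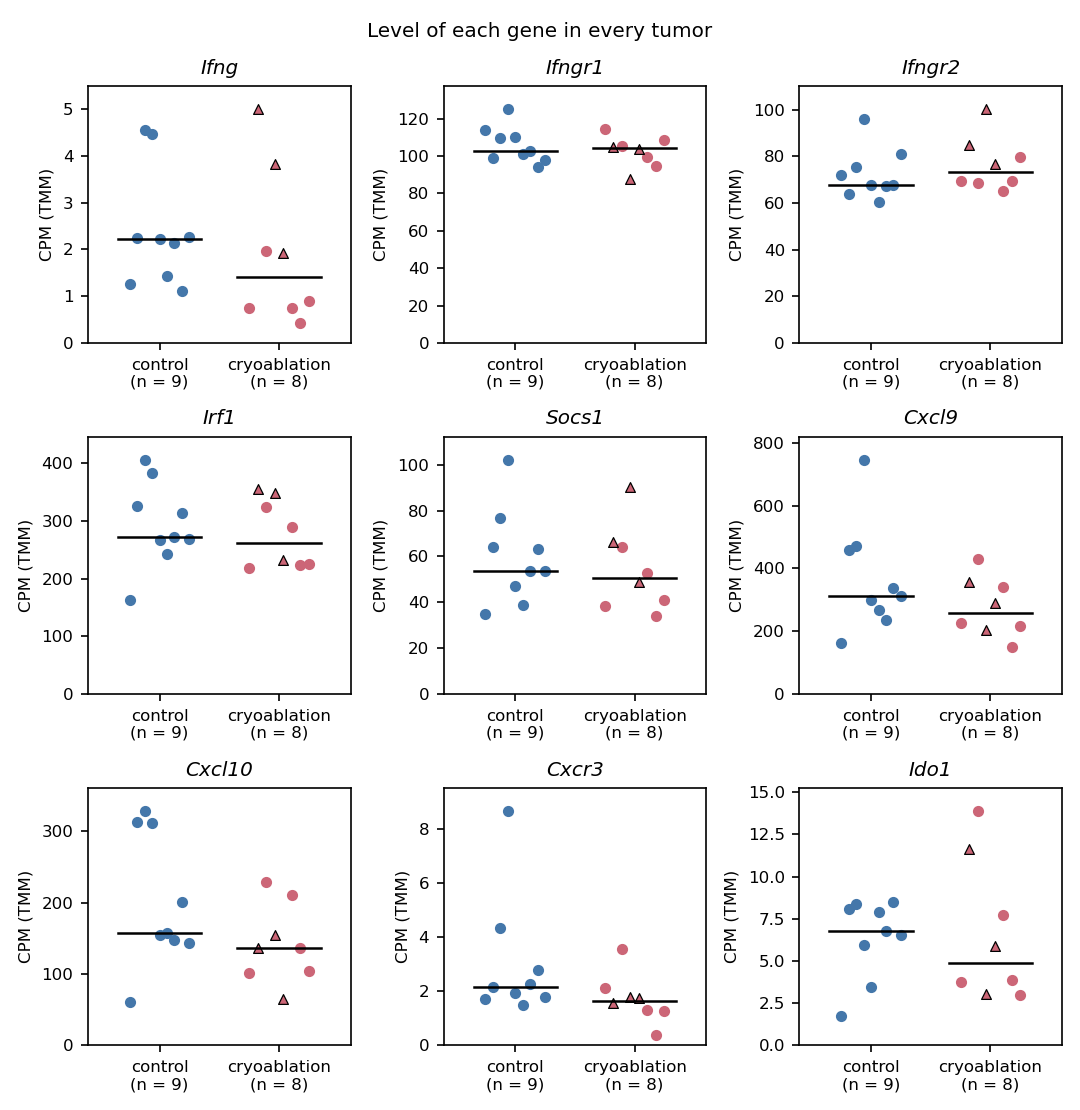
CPM after TMM normalization (y axis, from 0, a scale of its own in each panel) of the 9 genes in each control tumor (blue, n = 9) and each cryoablation tumor (red, n = 8). Triangles with a black edge are cryoablation replicates 2, 4 and 5, lines are medians, and the groups overlap in every panel, from Ifng with tumors between 0.422 and 4.99 CPM to Cxcl9 with tumors between 148 and 744 CPM.

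Ifng, the cytokine gene (ENSMUSG00000055170, chr10:118441046-118445892, plus strand), was present at few counts, 17 to 90 in the control tumors and 7 to 58 in the cryoablation tumors. It ranged over 1.11, 2.22 and 4.56 CPM in the control group (mean 2.41 ± 1.27, SD, n = 9) and over 0.422, 1.41 and 4.99 CPM in the cryoablation group (1.94 ± 1.65, n = 8). Control replicates 3 and 4 stood above the other controls, and cryoablation replicates 2 and 4 above the other cryoablation tumors, whereas 6 of the 8 cryoablation tumors lay below the control median. The log2 fold change was -0.34 ± 0.448 (SE), with a 95% interval of -1.28 to 0.60 and an adjusted p of 0.800. An exact permutation test of the difference in mean log2 CPM (2-sided, as all such tests here) gave p = 0.240.

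This value depended on the tumors that stood apart. Without cryoablation replicates 2, 4 and 5, the remaining 5 tumors ranged over 0.422, 0.746 and 1.97 CPM, and 5 of 5 were below the control median. The log2 fold change was then -1.33 ± 0.421 with an unadjusted p of 0.00618, and the adjusted p was 0.941, in a fit where 2.45% of 13250 genes had an unadjusted p under 0.05. Leaving out cryoablation replicate 2 alone gave -0.70, and leaving out control replicate 3 alone gave -0.17. With an offset for each tumor's trend over gene length, the value was -0.72 (unadjusted p = 0.0721), and by limma voom with sample quality weights, which lower the weight of tumors of high spread, it was -0.96 (unadjusted p = 0.0200). The adjusted p stayed at or above 0.472 under every alternative tried.

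The genes of the receptor varied little. Ifngr1, the chain that binds the cytokine (ENSMUSG00000020009, chr10:19591949-19610229, plus strand), ranged over 93.9, 103 and 125 CPM in the control group and over 87.7, 104 and 114.5 CPM in the cryoablation group. The span of 1.42-fold over the 17 tumors put its SD of log2 CPM at percentile 2.94 of all genes tested. Its log2 fold change was -0.049 ± 0.0749, with a 95% interval of -0.21 to 0.11, that is 0.867-fold to 1.08-fold. Ifngr2, the chain needed for signalling (ENSMUSG00000022965, chr16:91547072-91565623, plus strand), ranged over 60.6, 67.9 and 95.9 CPM against 65.0, 73.2 and 100.1 CPM, where control replicate 4 and cryoablation replicate 4 were the highest of their groups. Its value was 0.083 ± 0.104 (interval -0.14 to 0.30, adjusted p = 0.794), and without the 3 tumors that stood apart it was -0.048.

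Downstream of the receptor, 11 of 11 other signalling genes were tested and none had an unadjusted p under 0.05, with 7 below 0 and 4 above and a median log2 fold change of -0.11. Jak1 and Jak2, the receptor kinases, had values of -0.17 ± 0.132 and -0.19 ± 0.155. That of Jak2 was -0.046 without control replicate 4 and -0.25 without control replicate 1. The phosphatase gene Ptpn11 had a value of -0.20 ± 0.186. The values of Jak1 and Ptpn11 changed sign under 1 alternative.

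Irf1, a transcription factor gene that interferon gamma switches on early, was the more strongly expressed of the early targets (ENSMUSG00000018899, chr11:53770014-53778374, plus strand). It ranged over 164, 272 and 405 CPM in the control group and over 218, 261 and 355 CPM in the cryoablation group. Control replicate 1 was the lowest of all tumors and control replicates 3 and 4 were among the highest, while the cryoablation tumors lay between them. Between the groups it differed by -0.083 ± 0.161 on the log2 scale (interval -0.42 to 0.26, adjusted p = 0.849, exact p = 0.700). Without the 3 tumors that stood apart its value was -0.20 ± 0.177. Socs1, the feedback inhibitor (ENSMUSG00000038037, chr16:10782240-10785536, minus strand), ranged over 34.7, 53.8 and 102 CPM against 34.2, 50.8 and 90.1 CPM. Its log2 fold change was -0.13 ± 0.217 (interval -0.58 to 0.33, adjusted p = 0.831, exact p = 0.609), and it was 0.0029 without control replicate 4, which held the highest level. The value was -0.37 without the 3 tumors that stood apart and -0.36 by limma voom (unadjusted p = 0.0365, adjusted p = 0.481). The ratio of Socs1 counts to Irf1 counts spanned 1.74-fold over all 17 tumors, less than either gene alone, with spans of 2.98-fold and 2.48-fold, and the ratio did not differ between the groups beyond their spread (exact p = 0.608).

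The 2 early targets and the 2 chemokines varied together across tumors, as described further on, and the bases upstream of their starts are shown for that reason. They come from RefSeq on GRCm38.p6, which held windows of 250 bases before to 50 bases after the start for 8 of the 9 genes, 9 windows in all. Both strands of each window were searched for the GAS element TTCNNNGAA, the ISRE core GAAANNGAAA (TTTCNNTTTC on the other strand) and GGGANTTTCC (GGAAANTCCC). The last is a narrow form of the kB element, and looser forms, which these windows may hold, were not searched for. In this order, matches were held by 8.3%, 3.44% and 0.411% of all 32851 windows. Of the 9 windows 5 held a match. In the 4 sequences below, the 250 bases before the start are written 5′ to 3′ on the strand of the gene, and capitals mark a match. They lie at chr11:53769764-53770013 on the plus strand for Irf1, and on the minus strand at chr16:10785537-10785786 for Socs1, chr5:92328080-92328329 for Cxcl9 and chr5:92348890-92349139 for Cxcl10.
Irf1: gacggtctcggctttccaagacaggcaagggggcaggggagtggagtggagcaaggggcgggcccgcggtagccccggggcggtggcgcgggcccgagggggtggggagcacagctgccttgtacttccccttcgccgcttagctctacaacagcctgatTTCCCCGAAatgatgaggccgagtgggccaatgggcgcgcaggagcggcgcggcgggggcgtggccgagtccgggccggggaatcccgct
Socs1: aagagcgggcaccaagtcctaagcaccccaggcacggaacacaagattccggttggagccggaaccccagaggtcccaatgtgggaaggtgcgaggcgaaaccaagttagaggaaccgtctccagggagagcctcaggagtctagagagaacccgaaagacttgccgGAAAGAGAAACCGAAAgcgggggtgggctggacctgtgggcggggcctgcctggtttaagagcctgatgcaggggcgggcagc
Cxcl9: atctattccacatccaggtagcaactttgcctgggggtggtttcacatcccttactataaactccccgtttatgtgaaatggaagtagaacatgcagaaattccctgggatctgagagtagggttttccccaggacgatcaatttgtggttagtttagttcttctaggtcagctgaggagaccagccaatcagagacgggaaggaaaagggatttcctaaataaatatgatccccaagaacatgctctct
Cxcl10: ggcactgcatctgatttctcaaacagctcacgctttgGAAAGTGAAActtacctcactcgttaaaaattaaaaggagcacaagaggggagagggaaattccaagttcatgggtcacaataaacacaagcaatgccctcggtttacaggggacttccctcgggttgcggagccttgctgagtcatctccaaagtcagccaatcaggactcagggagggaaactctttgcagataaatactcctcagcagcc
The match in Irf1 was a GAS element that began 90 bases before the start. In Socs1, 2 ISRE cores overlapped, beginning 83 and 77 bases before the start, and Cxcl10 held 1 ISRE core 213 bases before it. The Cxcl9 window, the second window of Irf1 and those of Ifngr1 and Cxcr3 held none of these letters. Ifng held a GAS match 249 bases before the start, and Ifngr2 a match to the narrow kB form 75 bases before it. Such a match describes the letters, and binding was not measured.

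Cxcl9 and Cxcl10, neighbours on chromosome 5, were the chemokine members, both on the minus strand. Cxcl9 (ENSMUSG00000029417, chr5:92321347-92328079) ranged over 162, 311 and 744 CPM in the control group (mean 365 ± 173) and over 148, 259 and 429 CPM in the cryoablation group (276 ± 94.3). Control replicate 4 was far above all other tumors, and cryoablation replicate 7 was the lowest. On the log2 scale the groups differed by -0.40 ± 0.263 (interval -0.95 to 0.15, adjusted p = 0.728, exact p = 0.236). The control median was above 5 of the 8 cryoablation tumors. Without control replicate 4 the value was -0.21.

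Cxcl10 (ENSMUSG00000034855, chr5:92346638-92348889) ranged over 61.1, 158 and 328 CPM in the control group (202 ± 94.1) and over 64.1, 136 and 228 CPM in the cryoablation group (142 ± 55.5). Control replicates 2, 3 and 4, at 313, 328 and 312 CPM, were above every cryoablation tumor, but control replicate 1 was below all of them. On the log2 scale the groups differed by -0.51 ± 0.297 (interval -1.13 to 0.11, adjusted p = 0.728, exact p = 0.209), and 6 of 8 cryoablation tumors were below the control median. Without the 3 tumors that stood apart the value was -0.38 ± 0.337. The unadjusted p was 0.102 with all tumors, 0.0253 without control replicate 1 and 0.0482 without cryoablation replicate 3. Art3, a gene on the other strand that overlaps Cxcl10, had 19 to 78 counts, or 0.719% to 3.16% of those of Cxcl10, and reads of the 2 genes cannot be told apart without the strand, which is not given in the sources used here. The same limit holds for Irf1, which overlaps Gm17334 on the other strand, and for Ifng, which overlaps the unclassified transcript Gm49751 on its own, 2 genes not analysed here.

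The balance of the chemokines was not fixed. The ratio of Cxcl9 to Cxcl10 counts ran from 1.43 to 2.65 in the control group (median 1.70), and after cryoablation from 1.09 to 4.52 (median 1.98), with no difference between the groups beyond their spread (exact p = 0.688). Relative to Irf1, Cxcl9 counts ran from 0.866 to 1.95 and from 0.583 to 1.32 (exact p = 0.153).

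Cxcr3, the receptor of both chemokines (ENSMUSG00000050232, chrX:101731535-101734269, minus strand), had the largest group difference of the 9 genes with all tumors in edgeR's fit, whereas that of Ifng was larger by limma voom and without the 3 tumors that stood apart. It ranged over 1.49, 2.14 and 8.67 CPM in the control group (3.01 ± 2.29) and over 0.362, 1.64 and 3.55 CPM in the cryoablation group (1.71 ± 0.907), from 23 to 134 and from 6 to 65 counts. The single high control was replicate 4 and the single low cryoablation tumor was replicate 7, and 7 of 8 cryoablation tumors were below the control median. The log2 fold change was -0.82 ± 0.399 with a 95% interval of -1.65 to 0.02, that is 0.318-fold to 1.02-fold. The unadjusted p was 0.0556, the adjusted p 0.728 and the exact permutation p 0.0782.

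The size of the Cxcr3 value moved with single tumors, from -0.44 without control replicate 4 to -1.07 without cryoablation replicate 3. It was -0.82 by DESeq2 (unadjusted p = 0.0429) and -0.93 with the gene length offset (unadjusted p = 0.0286), but -0.60 by limma voom (unadjusted p = 0.0876) and -0.81 without the 3 tumors that stood apart (unadjusted p = 0.124). Its span of 24.0-fold over the tumors was the widest of the 9 genes, and counting error at its mean count was 16.1% against an observed coefficient of variation of 77.2%. Per count of Cd3e, a chain of the T cell receptor complex, Cxcr3 ran from 0.600 to 1.79 in the control group and from 0.300 to 1.55 in the cryoablation group (exact p = 0.0963). The same ratio for Ifng ran from 0.328 to 2.07 and from 0.382 to 1.82 (exact p = 0.303).

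Of 8 other genes of the chemokine axis, all were tested and none had an unadjusted p under 0.05, with 5 below 0, 3 above and a median of -0.18. Cxcl11, the remaining CXCR3 ligand, which is without functional protein in C57BL/6 mice, had a log2 fold change of -0.13 ± 0.317 (-0.27 to -0.010 with 1 tumor left out). Dpp4, a protease that clips these chemokines, had -0.83 ± 0.452 (unadjusted p = 0.0838), and -0.52 without control replicate 4. Cxcl16, the ligand of CXCR6, had 0.40 ± 0.240 with all tumors and -0.18 without the 3 tumors that stood apart.

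**Figure D2:**
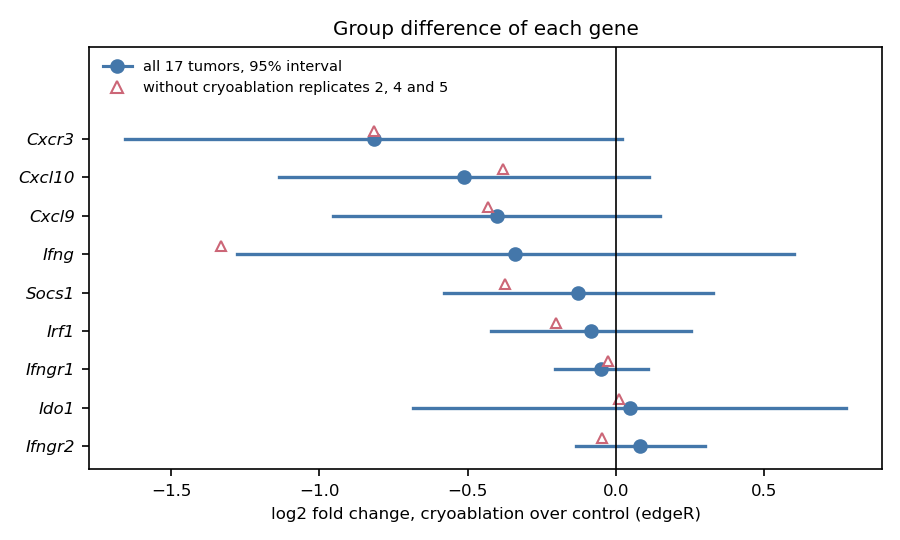
Log2 fold change of cryoablation over control (x axis) for the 9 genes in edgeR's quasi-likelihood fit, with bars for the 95% interval (9 control and 8 cryoablation tumors). Every interval crosses 0, from Cxcr3 at -0.82 to Ifngr2 at 0.083, and open triangles, the values without cryoablation replicates 2, 4 and 5, move furthest for Ifng, to -1.33.

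Ido1, the enzyme gene (ENSMUSG00000031551, chr8:24584136-24597009, minus strand), ranged over 1.72, 6.79 and 8.50 CPM in the control group and over 2.98, 4.87 and 13.9 CPM in the cryoablation group. The highest tumors were cryoablation replicates 2 and 3, at 11.6 and 13.9 CPM, although 5 of 8 cryoablation tumors were below the control median. Between the groups it differed by 0.046 ± 0.348 on the log2 scale, the interval of -0.68 to 0.78 was wide, and the adjusted p was 0.964 (exact p = 0.912). Of 9 further genes of tryptophan breakdown 8 were tested, with 4 below 0, 4 above and a median of -0.018. Kmo, which hydroxylates kynurenine, had the smallest p, with a log2 fold change of -0.87 ± 0.348, an unadjusted p of 0.0219, an exact p of 0.0552 and an adjusted p of 0.728. It was at 0.843 to 7.31 CPM in the control group and at 0.964 to 1.80 CPM in the cryoablation group, so that 8 of 8 tumors of that group lay below the control median, and its value was -0.47 without control replicate 4. Kyat1 had 0.30 ± 0.185 and Wars, the tryptophan tRNA ligase gene that interferon gamma induces, had -0.19 ± 0.132. Tdo2 was too low to test, with 4 to 32 and 2 to 10 counts.

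The other targets of interferon gamma were described from a list of 20 genes. All 20 were tested, 0 had an unadjusted p under 0.05, and 19 were below 0, with a median of -0.33 beside -0.0088 over all genes tested. Fcgr1, an antibody receptor of macrophages, was above 0 at 0.16 ± 0.235. The smallest p values belonged to the adhesion gene Icam1 at -0.82 ± 0.395 (unadjusted p = 0.0532, and -0.46 without control replicate 4) and to the GTPase genes Tgtp1 at -0.50 ± 0.311 and Tgtp2 at -0.52 ± 0.316, near-identical copies between which reads may be split. The checkpoint ligand gene Cd274 had -0.52 ± 0.345, the GTPase gene Gbp2 -0.22 ± 0.220, and Ciita, the switch of MHC class II, -0.28 ± 0.282. With 1 tumor left out they ran from -0.68 to -0.34, from -0.32 to -0.13 and from -0.43 to -0.17. Nos2, the inducible nitric oxide synthase gene, had -0.28 ± 0.613 and changed sign under 1 alternative. Its value was -1.08 without cryoablation replicate 7 and -0.046 without control replicate 3. The 20 genes were measured in the same tumors, so the number below 0 does not count separate observations. The summed level of the 20 genes was 1239, 3194 and 5728 CPM in the control group and 2004, 2473 and 4422 CPM in the cryoablation group, and control replicate 1 was the lowest tumor of all while control replicates 2 and 3 were the highest.

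**Figure D3:**
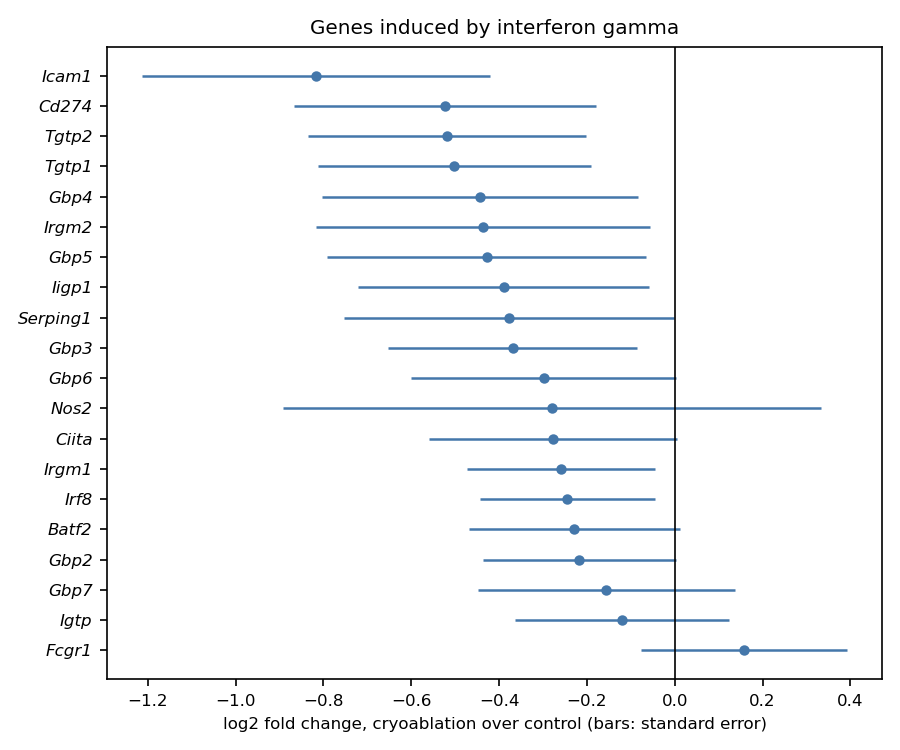
Log2 fold change of cryoablation over control (x axis) with its standard error (bars) for the 20 further genes induced by interferon gamma, in order of value. Values lie between -0.82 for Icam1 and 0.16 for Fcgr1, and 19 of 20 are below 0, none with an unadjusted p under 0.05.

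Of 13 genes that act upstream of Ifng, 12 were tested, with 10 below 0, 2 above and a median of -0.24. Il12b, a subunit of interleukin 12, which drives Ifng, had a log2 fold change of -1.14 ± 0.531 with an unadjusted p of 0.0459 and an exact p of 0.149. It was at 0.536 to 7.77 CPM in the control group and 0.298 to 1.97 CPM in the cryoablation group, and without control replicate 4 the value was -0.53. Il12rb2, the receptor chain for it, had -1.26 ± 0.575 with an unadjusted p of 0.0409 and an exact p of 0.0676. It was at 0.0747 to 2.39 CPM against 0.0 to 0.983 CPM, and 8 of 8 cryoablation tumors were below the control median. Both met the study's rule and neither passed the adjusted one, each with an adjusted p of 0.728. Il18r1, a receptor chain of interleukin 18, had -0.59 ± 0.321, which was -0.35 without control replicate 4 and -0.72 without control replicate 1. Tbx21, the Th1 transcription factor, had -0.22 ± 0.401, which was 0.14 without control replicate 4. The remaining gene, Il12a, was too low to test, with 0 to 11 and 0 to 4 counts. Over all 5 lists, 59 of 61 genes were tested and 0 were called by edgeR's adjusted p. The genes Il12b, Il12rb2 and Kmo were the 3 with an unadjusted p under 0.05, all of them lower after cryoablation, beside 1.17% of all genes tested that were lower at an unadjusted p under 0.05.

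Levels between genes were compared in FPKM, which the authors divided by gene length. In the control group Cxcl9 was highest at 126 ± 61.9 FPKM, followed by Cxcl10 at 94.2 ± 46.3 and Irf1 at 77.0 ± 21.9. In the cryoablation group the same 3 genes were at 89.0 ± 34.7, 62.6 ± 29.3 and 67.3 ± 14.9 FPKM. Cxcl9 was above Cxcl10 in 15 of 17 tumors, whereas Cxcl10 was above Irf1 in 9 of 17, which is no order beyond the spread. The receptor genes came next, with Ifngr1 at 38.4 ± 3.50 and 34.9 ± 5.50 FPKM, below Irf1 in 17 of 17 tumors, and Ifngr2 at 19.9 ± 3.23 and 19.6 ± 2.25. Socs1, at 21.3 ± 7.91 and 17.9 ± 5.60, could not be ordered against Ifngr2, which was above it in 8 of 17 tumors. Ido1 was much lower at 3.67 ± 1.46 and 3.52 ± 2.38 FPKM, and it was above Ifng in 14 of 17 tumors. Ifng, at 1.95 ± 1.08 and 1.37 ± 1.07, and Cxcr3, at 1.82 ± 1.40 and 0.962 ± 0.585, were the lowest and did not differ in order beyond their spread.

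While the groups overlapped, the tumors differed together. Over the 36 pairs of the 9 genes, Pearson's r of log2 CPM across the 17 tumors was positive for 30 and ran from -0.21 to 0.91 with a median of 0.545. In a permutation test 18 pairs had a Benjamini-Hochberg adjusted p under 0.05 over the 36, all of them positive. Each tumor is 1 library, so the genes share its depth and composition. With each tumor's trend over gene length removed 15 pairs passed, without control replicate 4 14 pairs, and without cryoablation replicates 2, 4 and 5 17 pairs, settings chosen after seeing the data. Within the control group 8 pairs passed and within the cryoablation group 1 pair.

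**Figure D4:**
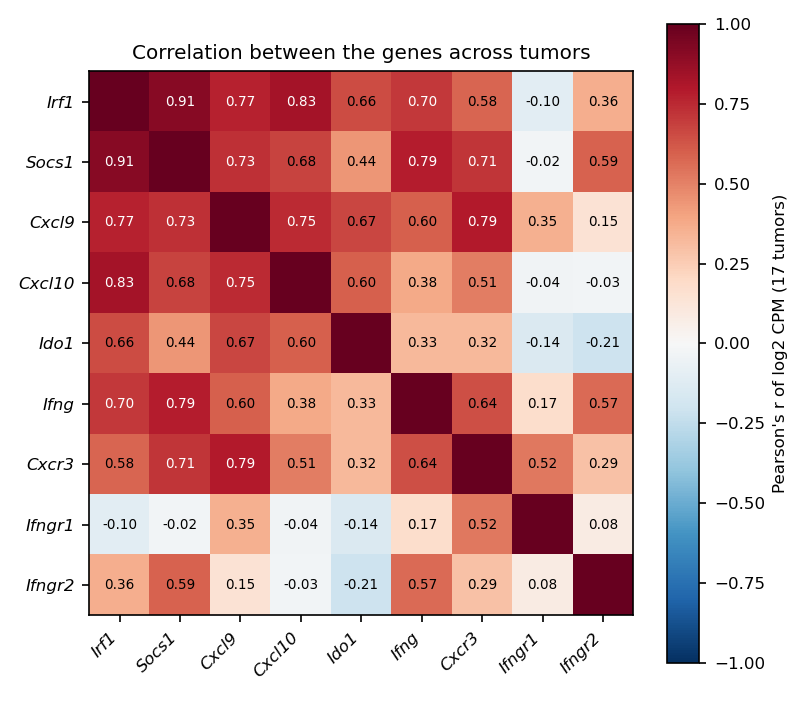
Pearson's r of log2 CPM for each pair of the 9 genes across the 17 tumors, as numbers and on a color scale from -1 to 1. The genes Irf1, Socs1, Cxcl9 and Cxcl10 form a block with r between 0.675 and 0.913, and the rows of Ifngr1 and Ifngr2 are paler.

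The closest pair was Irf1 with Socs1, with r = 0.913 and rho = 0.958, each with a permutation p of 1e-05, the smallest the permutations can give (adjusted p = 0.00036). It was 0.916 within the control group and 0.920 within the cryoablation group, the pair that passed in both. Irf1 with Cxcl10 had r = 0.830 (p = 2e-05) and rho = 0.779 (permutation p = 0.00037), and Irf1 with Cxcl9 had r = 0.770 (p = 0.00033) and rho = 0.779 (permutation p = 0.00042). Cxcl9 with Cxcl10 had r = 0.748 (p = 0.00043) and rho = 0.779 (permutation p = 0.00037). For these 3 pairs r was 0.965, 0.904 and 0.917 within the control group and 0.624, 0.553 and 0.353 within the cryoablation group, where none passed, and a difference between the groups was not tested. Without the 2 tumors farthest from the median of the first gene, r of the 4 pairs was 0.935, 0.716, 0.701 and 0.783.

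Ifng went with the early targets more than with Cxcl10. It had r = 0.786 (p = 0.00024) and rho = 0.801 (permutation p = 0.0002) with Socs1 and r = 0.704 (p = 0.00162) and rho = 0.757 (permutation p = 0.00071) with Irf1. With Cxcl9 r was 0.597 (permutation p = 0.0111, adjusted p = 0.0284) and rho 0.559 (permutation p = 0.0216). With Cxcl10 r was 0.377 (permutation p = 0.137, adjusted p = 0.224) and rho 0.397 (permutation p = 0.116). Without the 2 farthest tumors these 4 values of r were 0.762, 0.668, 0.491 and 0.467, and that the values differ from each other was not tested. Ifng was highest in control replicates 3 and 4 and cryoablation replicates 2 and 4, which were also the 4 highest tumors for Irf1.

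Cxcr3 and its ligand Cxcl9 had r = 0.791 (p = 0.0002) and rho = 0.608 (permutation p = 0.0112), and r was 0.534 without control replicate 4 and cryoablation replicate 7, the tumors farthest from the median of Cxcl9. Socs1 with Cxcr3 had r = 0.711 (p = 0.00091) and rho = 0.632 (permutation p = 0.0082), and r was 0.686 without the 2 farthest tumors. Cxcl10 with Cxcr3 had r = 0.511 (permutation p = 0.0351, adjusted p = 0.0632) and rho = 0.588 (permutation p = 0.0149). Ido1 went with Cxcl9 at r = 0.670 (p = 0.00351) and rho = 0.728 (permutation p = 0.00147), and r was 0.836 without the 2 farthest tumors. The receptor chains Ifngr1 and Ifngr2 did not pass together, with r = 0.0819 (permutation p = 0.754), at 0.631 within the control group and -0.461 within the cryoablation group.

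**Figure D5:**
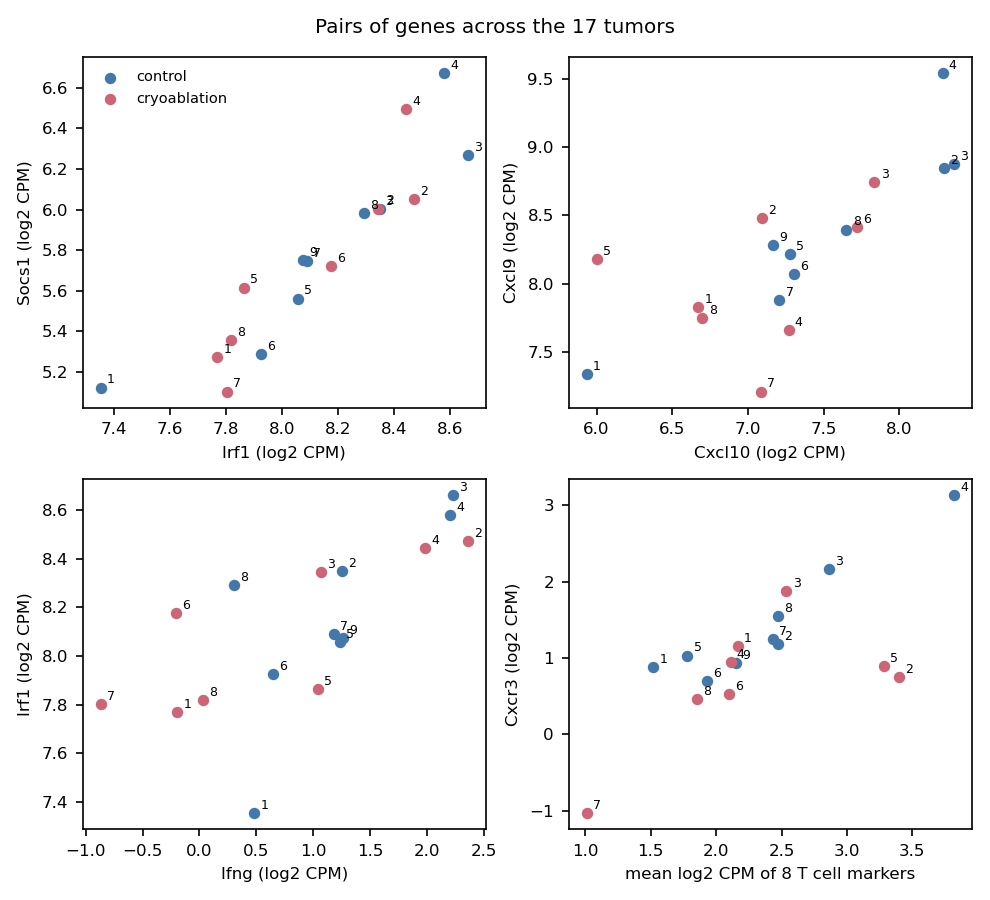
Log2 CPM of 3 pairs of the genes, and of Cxcr3 against the mean log2 CPM of 8 T cell markers, in each of 9 control (blue) and 8 cryoablation tumors (red), numbered by replicate. Irf1 and Socs1 lie along a line (r = 0.913), and in the T cell panel cryoablation replicates 2 and 5, at mean marker levels of 3.40 and 3.28, lie below the trend of the other tumors.

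The members were also compared with markers of the cells that make or answer interferon gamma. Of the T cell markers 8 of 9 were in the table, with a summed level of 47.3 CPM (median, 24.1 to 123) in the control group and 39.7 CPM (18.02 to 98.1) in the cryoablation group, and none was called or at 0 in all tumors. The NK cell list (7 of 7) was at 53.9 CPM (29.6 to 134) and 51.2 CPM (28.9 to 95.4), the dendritic cell list (8 of 8) at 64.5 CPM (40.0 to 126) and 63.1 CPM (31.9 to 87.3), and the macrophage list (8 of 8) at 1697 CPM (979 to 2705) and 1604 CPM (735 to 3522). Of the T cell markers 4 had a log2 fold change below 0 and 4 above, with Cd3e at -0.29 ± 0.369 (-0.0041 without control replicate 4), Cd8a, of cytotoxic T cells, at -0.36 ± 0.353 and Cd3g, a further chain of the receptor complex, at 0.32 ± 0.370. Of the NK cell markers 4 were below 0 and 3 above, with the receptor gene Ncr1 at -0.33 ± 0.259 (-0.45 to -0.19 with 1 tumor left out) and Klrb1c at 0.40 ± 0.307. Of the macrophage markers 4 were below 0 and 4 above, with a median of 0.071. Among them Adgre1 was at -0.69 ± 0.291 with an unadjusted p of 0.0290 (exact p = 0.0465, adjusted p = 0.728). The other 7 had an unadjusted p above 0.05, and the part of Adgre1 in the members' values was not tested.

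Of the 36 pairs of a member and a list's mean log2 CPM, 21 had an adjusted permutation p under 0.05, all positive, and the count was 10 without the 2 tumors farthest from the median, 20 within the control group and 0 within the cryoablation group. Socs1 had r = 0.891 with the NK cell list and 0.863 with the dendritic cell list (each permutation p = 1e-05, rho = 0.858 for both, with permutation p = 4e-05 and 3e-05), and without the 2 farthest tumors r was 0.826 and 0.867. Ifng had r = 0.819 (p = 8e-05) and rho = 0.772 (permutation p = 0.0005) with the dendritic cell list, and 0.770 without the 2 farthest tumors. Cxcr3 had r = 0.721 (p = 0.00159) and rho = 0.635 (permutation p = 0.00726) with the T cell list, which was 0.318 without the 2 farthest tumors, so that the relation rests on them. It was 0.938 within the control group and 0.932 without cryoablation replicates 2, 4 and 5. Cxcl10 had r = 0.326 with the T cell list (permutation p = 0.202) and rho = 0.392 (permutation p = 0.121), against 0.783 (p = 0.00024) and rho = 0.755 (permutation p = 0.0008) for Cxcl9, and a difference between the chemokines was not tested.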

How the data were processed

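RNA sequencing of 9 control and 8 cryoablation tumors was analysed. Groups follow the labels, while the study's text states the group sizes the other way round. Beads captured the mRNA, which was sequenced on a NovaSeq platform. The labels name the builds GRCm38 and mm10. The aligner, the counting program and the strandedness are not given in the sources used here. The authors deposited raw read counts per gene and tumor, and the deposited FPKM equalled the count divided by gene length and total count for 100% of values (tolerance 0.1%). FPKM were used to compare levels between genes.

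Counts were tested with edgeR 4.0.16 in R 4.3.3 (TMM, filterByExpr, quasi-likelihood F test, group as the only term), with Benjamini-Hochberg adjustment over the 13005 genes that passed. A standard error is the absolute fold change (log2) over the root of F. Exact permutation tests used log2 CPM (prior count 2) over 24310 splits, with a smallest possible p of 4.11e-05. Correlations across tumors used 100000 permutations, and exact ones within a group. On simulated counts with 197 changed genes (log2 change 2 up or down) among 12936 tested, edgeR's test recovered 99% with 1.52% false calls and DESeq2 99.5% with 11.7%.

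Alternatives were DESeq2 1.42.0, limma 3.58.1 voom with sample quality weights, RLE normalization, no filter, a mean of at least 10 counts, a gene length offset, a replicate block, the fit without 3 tumors that lay apart, and leaving out each tumor. The members, the gene lists and the tests were chosen with earlier results of these data known. Genes named are the 9 members, up to 3 genes per pathway list with the smallest p, 13 genes whatever their values, and for each member the 3 genes with the highest r. Fcgr1, Tdo2, Il12a, Art3, Cdx2, Cd3g, Klrb1c and Adgre1 were named after their values were seen, and the values of 2 genes that the rule names are not reported here. Marker lists of neutrophils, skeletal muscle, adipocytes, epidermis, fibroblasts and endothelium were also measured, and of the 4, 3, 5, 3, 5 and 5 markers tested, 2, 0, 2, 1, 0 and 0 were higher at an unadjusted p under 0.05 after cryoablation and 0 lower.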

Additional observations from a re-analysis of the deposited data

Results flagged for a closer look

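Cxcl10 in control replicate 1 stood apart from the other control tumors. At 61.1 CPM it was the lowest of the 9, and its gap to the nearest control tumor made up 0.507 of the whole range of log2 CPM in the group, above Dixon's 95% critical value for 9 tumors. It was 1 of 18 groups of tumors tested (9 genes in each treatment group), and chance flags about 1 group in 20. The same tumor was the lowest control for Irf1, Socs1, Cxcl9 and Ido1. Without it the log2 fold change of Cxcl10 was -0.63, with an unadjusted p of 0.0253 and an adjusted p of 0.478. Control replicate 1 was not among the tumors that lay apart on the first principal component.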

How the results depend on the processing

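Under all 25 alternatives, 0 genes, 0 members and 0 of the pathway genes were called at an adjusted p under 0.05. The number of members below 0 was 6 to 8. Members with an unadjusted p under 0.05 numbered 0 with all tumors, 1 by DESeq2, with the length offset, with the replicate block and without the 3 tumors that lay apart, 3 by limma voom, and 0 to 2 with 1 tumor left out. Past the study's threshold there were 64 genes, 33 with the replicate block, 39 with the length offset, 432 with no filter on low counts and 34 to 165 with 1 tumor left out, and 0 members, 1 without the 3 tumors and 0 to 1 with 1 tumor left out. Of members, Ifngr1 was 0.083 by limma voom, Ifngr2 -0.048 without the 3 tumors, and Ido1 -0.10 with the length offset, -0.56 by limma voom, -0.031 with the replicate block and -0.21 to 0.16 with 1 tumor left out, where Socs1 ran from -0.27 to 0.0029. Without the 3 tumors, Cxcl16 was -0.18, Jak1 0.043, Nos2 0.20 and Ptpn11 0.089. Tbx21 ran from -0.45 to 0.14 with 1 tumor left out. The cause was not tested. Correlated pairs of members numbered 8 within the control group and 1 within the cryoablation group, and member and marker pairs 0 within the cryoablation group and 10 without the 2 farthest tumors. These counts come from fewer tumors. The block fit used the 16 tumors of replicates 1 to 8. Same-numbered tumors did not consistently deviate together (correlations of -0.51 to 0.642, 4 of 8 pairs over 0.1). Of the control tumors, 2 were closest to the cryoablation tumor of their own number. This did not show that the numbers pair the tumors, and 8 pairs are too few to settle it. Ifng, Cxcr3 and Ido1 have few counts, and their intervals are the widest of the 9 genes.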

Other observations

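For each of the 9 genes, the other tested genes with the highest Pearson's r of log2 CPM over the 17 tumors were listed, as a description without a test, since the genes share the libraries and their depth. Ifng was most like Cebpe (0.894), Gm21188 (0.849) and the chemokine receptor gene Ccr7 (0.847). Irf1 was most like Nr4a3 (0.893) and Il18bp (0.888), and Socs1 most like Klra8 (0.905), Slfn5 (0.905) and Pkib (0.902).

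Cxcl9 was most like Slamf8 (0.954), Irf8 (0.948) and Ifi207 (0.926). Cxcl10 shared none of these and was most like Samhd1 (0.963), Snx10 (0.960) and the checkpoint ligand gene Cd274 (0.949), of which Snx10 was at 0.619 with the length trend removed and Cd274 at 0.932. Cxcr3 was most like Sla (0.937), Inpp5d (0.931) and Il21r (0.925), of which Il21r was at 0.955 with the trend removed.

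Ido1 was most like Serpina3f (0.910), Il12rb1 (0.865) and Apol6 (0.864). Of the receptor chains, Ifngr1 was most like Tgfbi (0.854), AI467606 (0.841) and Ptpn1 (0.799), the last of them at 0.106 with the length trend removed, and Ifngr2 was most like Ap1b1 (0.868), Tnfaip8 (0.863) and Maf (0.860).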
